A study of Homo sapiens with 2 samples.

Results

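NRF2 (gene symbol NFE2L2) is a transcription factor that induces enzymes against oxidants and reactive chemicals. In unstressed cells its protein is held by KEAP1, which passes it to a CUL3 ubiquitin ligase for destruction; oxidants and electrophiles block this step, and NRF2 then pairs with a small MAF protein (MAFF, MAFG or MAFK) on antioxidant response elements. BACH1 occupies the same elements as a repressor, most of all at HMOX1. Colon epithelium meets dietary and bacterial chemicals constantly, and many of these genes are strongly expressed in colon cancer lines.

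The transcripts of 9 established NRF2 targets were examined: NQO1, GCLM, GCLC, HMOX1, TXNRD1, SRXN1, SLC7A11, AKR1C1 and AKR1B10. They were chosen by name from the pathway and found on the arrays through the RefSeq accession of each probe, which gave 11 of 50599 non-control probes and 9 of 21614 named genes. Of the 11 probes, 9 were well above background on both arrays, so that 8 of the 9 genes could be compared.

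HCT116 is a line long established from a human colon cancer. Its cells were stably transfected either with the mock pEB vector or with the same vector carrying HOXA5 short RNA, a non-coding transcript of the HOXA5 locus, and both lines were kept in blasticidin for 2 weeks. Vector, transfection and drug were thus common to both groups, and whether each line was a clone or a mixed population is not given in the sources used here. There was 1 array per group, both on the same slide. A difference between the lines and a difference between groups therefore cannot be told apart, no test between groups could be made, and precision is limited by there being only 2 arrays. The question put to these genes was whether the cells carrying HOXA5 short RNA held other levels of the antioxidant transcripts than the mock cells.

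Signals below are the processed signals of the scanner software, which are linear intensities after background correction. The 75th percentile of the non-control probes was 35.7 for mock and 44.0 for HOXA5 short, so an unaltered transcript reads somewhat brighter on the second. Each log2 difference is HOXA5 short minus mock after that percentile was removed. On this scale the median of the 11994 named genes compared was -0.02. Beside a difference stand 2 measures of error: the scanner software's own error, and the standard deviation (SD) of single spots around their probe's mean among 590 probes printed repeatedly, which was 0.15 for signals of 200 or more, 0.19 from 50 to 200, 0.27 from 15 to 50 and 0.30 below that. Neither holds any spread between cultures.

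The labels were checked first. The probe of HOXA5 (NM_019102) gave 39.4 in mock and 346 in HOXA5 short cells, a log2 difference of 2.83 (scanner error 0.21). Of its 29 well-measured neighbours on the grid, 0 reached 2-fold. The vector RNA shares sequence with HOXA5, and where the probe lies relative to it is not known here, so RNA from the vector and from the cell's own locus cannot be told apart. Of 8 colon epithelial markers, 6 were above background on both arrays (CDH1, CDX1, EPCAM, KRT8, KRT18 and KRT19), and KRT20 and VIL1 were on neither. CDX1 was so on only 1 of its 2 probes, which was dim (12.6 in mock and 18.9 in HOXA5 short cells). Of 7 markers of other cell types on the array, ALB, CD3E, DCN, PECAM1 and PTPRC were well above background in neither line. COL1A1 and ESAM were above it in both, at signals of 16.7 to 26.2, brighter than CDX1 on each array.

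NQO1 stood apart from the other targets. Its transcript was 2.32-fold higher in HOXA5 short cells, while the other 7 genes lay between -0.13 and 0.01 on the log2 scale. The median over the 8 genes was -0.09, and it was -0.10 without NQO1. At 2-fold, 1 of 8 genes was higher, against 0.642% of all named genes compared, and 0 of 8 were lower, against 0.258%. The difference was below 0 for 6 of the 8 genes, against 54.5% of all named genes compared. It was below 0 for 3 of the 8 when the arrays were scaled to the median of all probes, and for 0 when scaled to spike-in RNAs. These scalings move every gene by the same amount, and the median of all named genes was then 0.08 and 0.45. The share of all genes below 0 was not counted there. Under each of these scalings the median over the 8 genes less that of all named genes was -0.07.

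**Figure D1:**
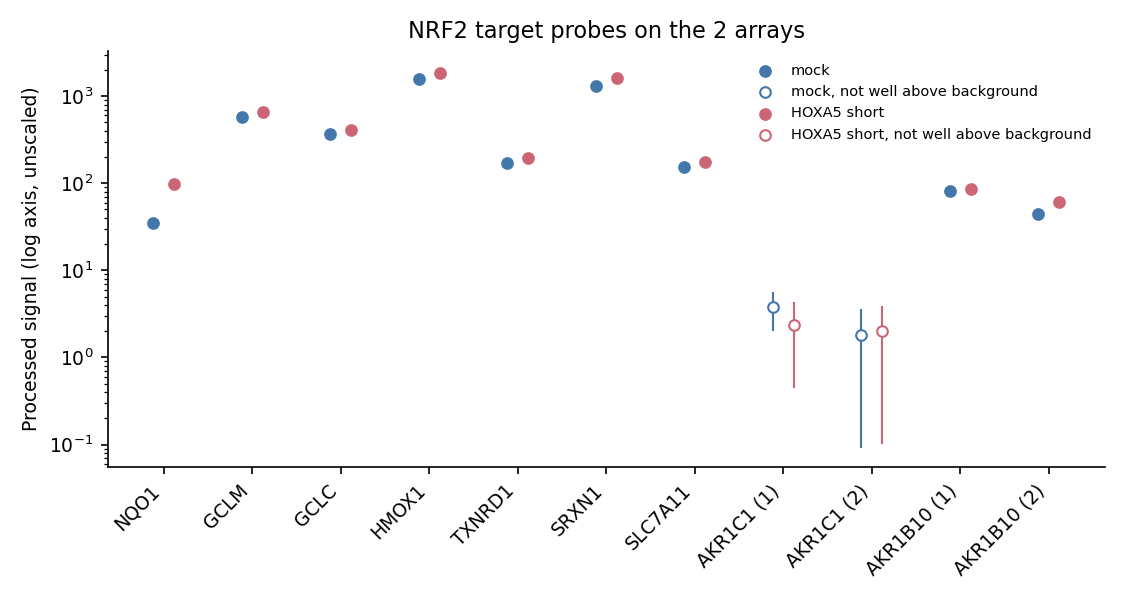
Processed signal (log axis, before scaling) of the 11 probes of the 9 NRF2 targets in mock and HOXA5 short cells, 1 array each. Bars are the scanner software's error and are smaller than most symbols; lower bars of AKR1C1 are cut short where they would pass 0. The NQO1 pair lies farthest apart, at 34.6 and 99.2, and both AKR1C1 probes are open symbols, not well above background.

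NQO1 reduces quinones by transfer of 2 electrons and is among the most widely used readouts of NRF2 activity. Its only probe (NM_000903) was printed in 1 spot. It read 34.6 in mock cells (scanner error 4.03) and 99.2 in HOXA5 short cells (scanner error 10.2). After scaling the difference was 1.22 (scanner error 0.22), beyond the single-spot SD of 0.19 at the mean brightness of both arrays and of 0.27 at that of the mock reading. Of the 11994 named genes compared, 40 had a higher difference and 13 were lower by more than this size. The number of higher genes ran from 23 without uneven areas to 264 without a filter on dim probes, and was 128 with normexp and quantile normalization and 142 in the authors' table.

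The spot lay in the last of the 164 columns of the array grid, so its surroundings were looked at. Within 4 rows and columns there were 15 well-measured spots of other probes, and none reached 2-fold. Their differences ran from -0.13 to 0.75 with a median of -0.03. No well-measured spot was directly adjacent. Of the 4 spots at the nearest distance, of 2 rows or columns, a dim pair was higher in HOXA5 short, by 0.75 (12.2 against 25.5) and 0.54 (18.9 against 33.8), and the brighter pair gave -0.11 and 0.06.

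Over the whole of the last grid column, 4 of the 93 other probes printed once (4.3%) reached 2-fold, and all 4 were higher in HOXA5 short. The share was 2.31% over the last 5 columns (NQO1 included), 7.78% over the first 10 and 0.998% in the columns between. The 93 other probes of the last column had a median difference of 0.12 (SD 0.46 over probes). In the columns between, the median was -0.02 (SD 0.30). Among probes printed repeatedly, 23 spots fell in the last column, and 0 of these were 2-fold away from the other spots of their probe (range -0.30 to 0.66, median 0.07). In the other columns 11 of 5409 such spots (0.203%) were, so that few or none would be found among 23 at that share. At 1.5-fold above the other spots of their probe there was 1 of 23, against 61 of 5409. NQO1 was thus above every well-measured spot around it, in a column where 2-fold differences were more frequent than in the middle of the grid and less frequent than in the first 10 columns. The part of the position in the NQO1 value was not tested.

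**Figure D2:**
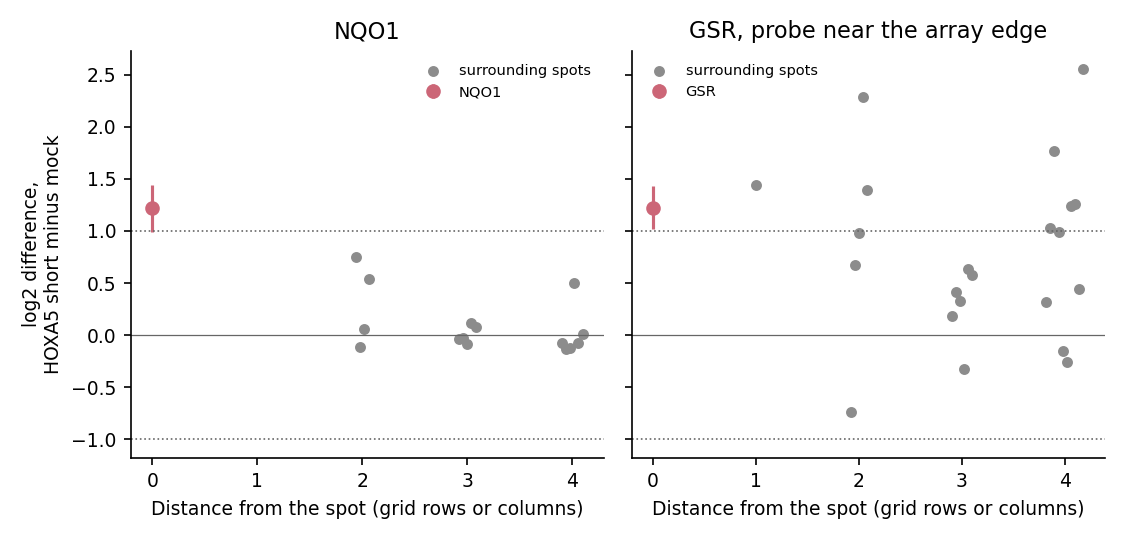
Log2 difference (HOXA5 short minus mock) of the NQO1 spot and of 1 of the 2 GSR spots at distance 0 (red, bars are the scanner error) and of the well-measured spots around them (grey) by distance in grid rows or columns. Around NQO1 0 of 15 spots pass the dotted 2-fold lines, and around this GSR spot 8 of 22 do.

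The glutathione arm begins with cystine. SLC7A11 is the light chain of the cystine importer xCT, and its probe (NM_014331) read 155 in mock and 177 in HOXA5 short cells. The log2 difference was -0.12 (scanner error 0.21). This spot lay in an uneven area of the grid, since 3 of its 30 neighbours reached 2-fold, and the neighbours' median was 0.20. SLC3A2, the heavy chain that carries xCT to the membrane, read 682 and 849, a difference of 0.01.

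GCLC and GCLM are the catalytic and the modifier subunit of glutamate-cysteine ligase, the enzyme of the first and rate-limiting step of glutathione synthesis. The GCLC probe (NM_001498) read 364 in mock and 411 in HOXA5 short cells, and that of GCLM (NM_002061) read 582 and 663. After scaling, the differences were -0.13 for GCLC and -0.12 for GCLM, each with a scanner error of 0.20. Both subunits were thus within the single-spot SD of 0.15 of no difference, and none of the 34 spots around GCLC or the 28 around GCLM reached 2-fold. GSS, which completes glutathione in the next step, read 1315 and 1236, with a log2 difference of -0.39 (scanner error 0.20), the lowest value in the glutathione list, where the 24 spots around it had a median of -0.26.

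TXNRD1 is the cytosolic reductase that keeps thioredoxin active. Its probe (NM_001261445) read 170 in mock and 196 in HOXA5 short cells, a log2 difference of -0.10 (scanner error 0.20). SRXN1, sulfiredoxin, restores over-oxidised peroxiredoxins. Its probe (NM_080725) read 1316 and 1631, a difference of 0.01 (scanner error 0.20). Of their partners, thioredoxin itself (TXN) differed by -0.08, and the peroxiredoxin PRDX1 by -0.15 on a probe printed once and by -0.01 (SD 0.06 over 10 spots) on a probe printed in 10. The mitochondrial reductase TXNRD2 was dim, with 16.3 and 17.4 on the brighter of its 2 probes, and differed by -0.21 on that probe and -0.17 on the other.

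HMOX1, heme oxygenase, breaks heme down to biliverdin, iron and carbon monoxide, and is a classic target of repression by BACH1. Its probe (NM_002133) was the only one of the set printed in 10 spots, of which 9 were used and 1 was flagged by the scanner software. Before scaling, the 9 spots ran from 1471 to 1688 with a median of 1569 in mock cells. On the brighter HOXA5 short array they ran from 1755 to 1934 with a median of 1814. After scaling, the mean difference was -0.08 (SD 0.05 over 9 spots), and single spots ran from -0.15 to 0.01, with 8 of 9 below 0. The flagged spot gave 0.09. These spots share 1 RNA sample per array, so their agreement speaks of the printing and scanning alone. HMOX2, the constitutive isoform, read 1268 and 1964, a difference of 0.33 (scanner error 0.20).

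**Figure D3:**
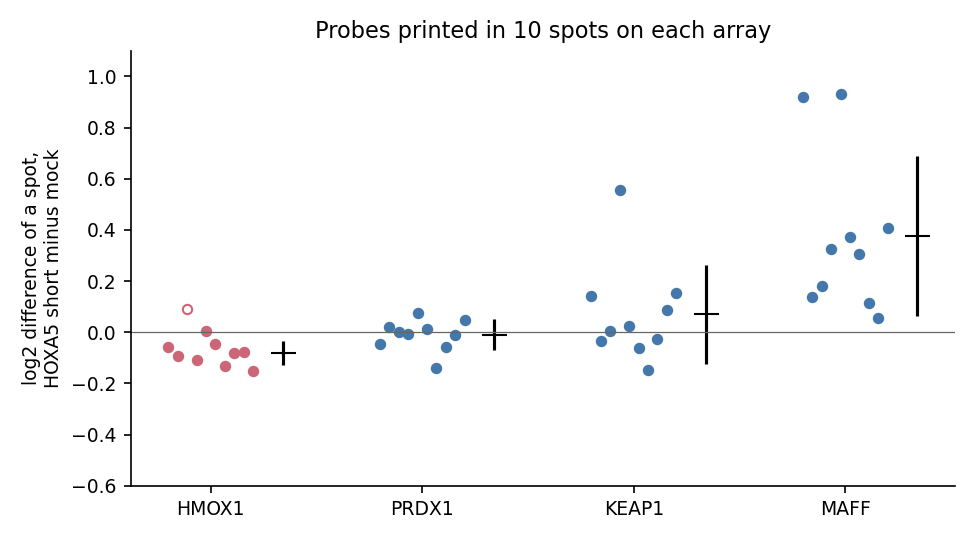
Log2 difference (HOXA5 short minus mock) of each spot of 4 probes printed in 10 spots per array, with the mean and SD over the spots used beside them (black). HMOX1 and PRDX1 cluster tightly about -0.08 and -0.01, whereas the MAFF spots spread from 0.05 to 0.93 and all lie above 0; the open symbol is the flagged HMOX1 spot.

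AKR1B10 is an aldo-keto reductase that reduces retinal and lipid aldehydes. It had 2 probes (both NM_020299). The first read 81.3 in mock and 85.7 in HOXA5 short cells, a difference of -0.23 (scanner error 0.21). The second read 44.5 and 61.2, a difference of 0.16 (scanner error 0.21). The probes disagreed in sign, and the gene mean was -0.04. Its close relatives AKR1B1 and AKR1B15 gave 0.10 and 0.64. The AKR1B15 spot was dim (16.6 and 31.9) and in an uneven area, where 9 of 22 neighbours reached 2-fold. AKR1B15 is very similar in sequence to AKR1B10. The probe sequences were not at hand, so whether these probes tell the pair apart was not examined.

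AKR1C1 reduces steroids and aldehydes and shares nearly all of its coding sequence with AKR1C2. Neither of its probes (NM_001353) was well above background in either line, with signals of 3.83 and 2.38 on the first and 1.83 and 2.01 on the second. The dimmest signal well above background was 7.74 for mock and 8.44 for HOXA5 short. AKR1C1 therefore has only an upper bound in both lines and no fold is given. No probe was matched to AKR1C2 by accession. AKR1C3 was detected, at 15.8 and 18.6, with a difference of -0.07 (scanner error 0.28).

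**Figure D4:**
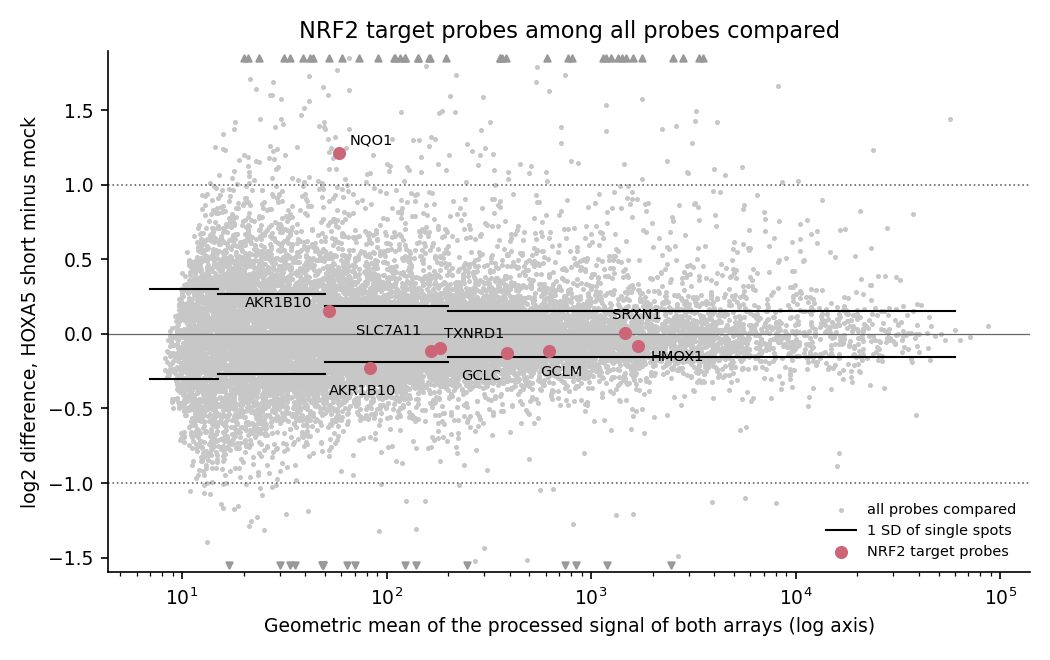
Log2 difference (HOXA5 short minus mock) against the geometric mean of both processed signals (log axis) for the 17938 probes compared (grey; 41 probes above and 16 below the axis are drawn as triangles at its edges), with the 9 measured NRF2 target probes in red. Black lines mark the SD of single spots at each brightness and dotted lines 2-fold; NQO1 alone among the targets passes 2-fold.

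Antioxidant response elements hold the core TGACNNNGC. The 300 bases around the annotated start (250 before, 50 after; RefSeq, GRCh38.p14) were searched on both strands for these letters, to see which targets carry a core this near. Of all 35116 promoters of this length, 13.3% held a match. Entries were found for 6 of the 9 targets, not for HMOX1, SLC7A11 and AKR1B10, and 2 of the 6 had a match, GCLM and TXNRD1. The matches are printed 5′ to 3′ along the strand of the core, with the core in capitals.
GCLM (chr1:93909448-93909472, plus strand, opposite to the gene, 34 bases before the start): gaagacaaTGACTAAGCagaaatcg
TXNRD1 (chr12:104215672-104215696, plus strand, same as the gene, 99 bases before the start): acgggctaTGACTTCGCtgttgtca
TXNRD1 (chr12:104215763-104215787, minus strand, opposite to the gene, 8 bases before the start): gtgggaacTGACGGAGCcgaaggac

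Distances run from the start to the end of the core that lies farther upstream. The variant TGACTCAGC, whose first 7 letters are also an AP-1 site, was in 0.561% of all promoters and in none of the 6. NQO1, with the largest difference, had no match within this window, as had GCLC, SRXN1 and AKR1C1, and the 2 genes with a match differed by -0.12 (GCLM) and -0.10 (TXNRD1). A match is a run of letters and not evidence of binding, and elements farther from the start were not searched.

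The regulators gave no common direction. NFE2L2 itself was not well above background in either line (1.80 and 1.98 on its only probe), so the transcript of NRF2 could not be compared. KEAP1 was printed in 10 spots and differed by 0.07 (SD 0.19 over 10 spots, range -0.15 to 0.55). CUL3 read 951 and 1014 on its measured probe, a difference of -0.21 (scanner error 0.20). SQSTM1, which binds KEAP1 and is itself an NRF2 target, read 2522 and 3175, a difference of 0.03.

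BACH1 had the lowest value of the regulators, a difference of -0.40 (scanner error 0.21). Its measured probe read 101 in mock and 94.2 in HOXA5 short cells, and its other probe was not well above background in either line. Of the small MAF genes, MAFF spots ran from 28.7 to 54.5 in mock and from 65.4 to 91.6 in HOXA5 short cells before scaling. The HOXA5 short array was the brighter as a whole (75th percentile 44.0 against 35.7). After scaling, the mean difference of MAFF was 0.38 (SD 0.31 over 10 spots), with all 10 above 0 and the highest at 0.92 and 0.93. The 10 spots share 1 RNA sample per array. MAFK read 194 and 331, a difference of 0.47, in an uneven area where 6 of 27 neighbours reached 2-fold. MAFG differed by 0.22 and 0.01 on its 2 probes. Over the list, 14 of 15 genes were compared, 6 above and 8 below 0, with a median of -0.10 and none past 1.5-fold, against 2.78% of all named genes that were 1.5-fold higher and 1.6% that were 1.5-fold lower.

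In the other gene lists of the pathway 0 genes reached 2-fold, with 0.642% of all named genes that high and 0.258% that low, so that few or none would be found at the share of all genes. Of the other NRF2 targets, 22 of 27 were compared, with a median of 0.02, and the highest value was 0.67 for GSR, glutathione reductase. Only GSR was past 1.5-fold. Its 2 probes disagreed. The first read 155 in mock and 447 in HOXA5 short cells, a difference of 1.22, but lay in grid column 3, where 8 of 22 neighbours reached 2-fold. The second read 160 and 216, a difference of 0.12, in an even area with 0 of 32.

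GSR and NQO1 thus had the same difference on a single spot, 1.22, and differed in what could be set beside it. GSR had a further probe and neighbours with a median of 0.66. NQO1 had no further probe, and its neighbours had a median of -0.03 and ran from -0.13 to 0.75, with the nearest dim pair at 0.75 and 0.54. The part of the position in either value was not tested. GPX2, an intestinal glutathione peroxidase, was well above background in HOXA5 short alone (5.06 in mock and 10.4 in HOXA5 short cells). Against the dimmest well-measured mock signal this was 1.09-fold after scaling, within the scanner error of 0.60 on the log2 scale. No difference is read from it.

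The list for glutathione synthesis and use had a median of -0.03 over 30 of 34 genes. GLRX3, a glutaredoxin that handles iron-sulfur clusters, had its highest value, with 262 and 547 and a difference of 0.76 (scanner error 0.20), where 1 of 30 neighbours reached 2-fold and their median was 0.26. Thioredoxin and peroxiredoxin genes had a median of -0.04 over 18 of 20, from -0.19 for TXNRD2 to 0.26 for SESN1, a sestrin. Of the genes that remove superoxide and peroxide, 4 of 5 were compared, with a median of -0.03, from -0.30 for SOD1 (cytosolic) to 0.10 for SOD2 (mitochondrial). The aldo-keto reductases had a median of -0.05 over 7 of 12, from -0.11 for AKR7A3 to 0.64 for AKR1B15. NQO2, the relative of NQO1, gave 0.11 on its bright probe (394 and 525) and -0.26 on a dim one (13.0 and 13.4).

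**Figure D5:**
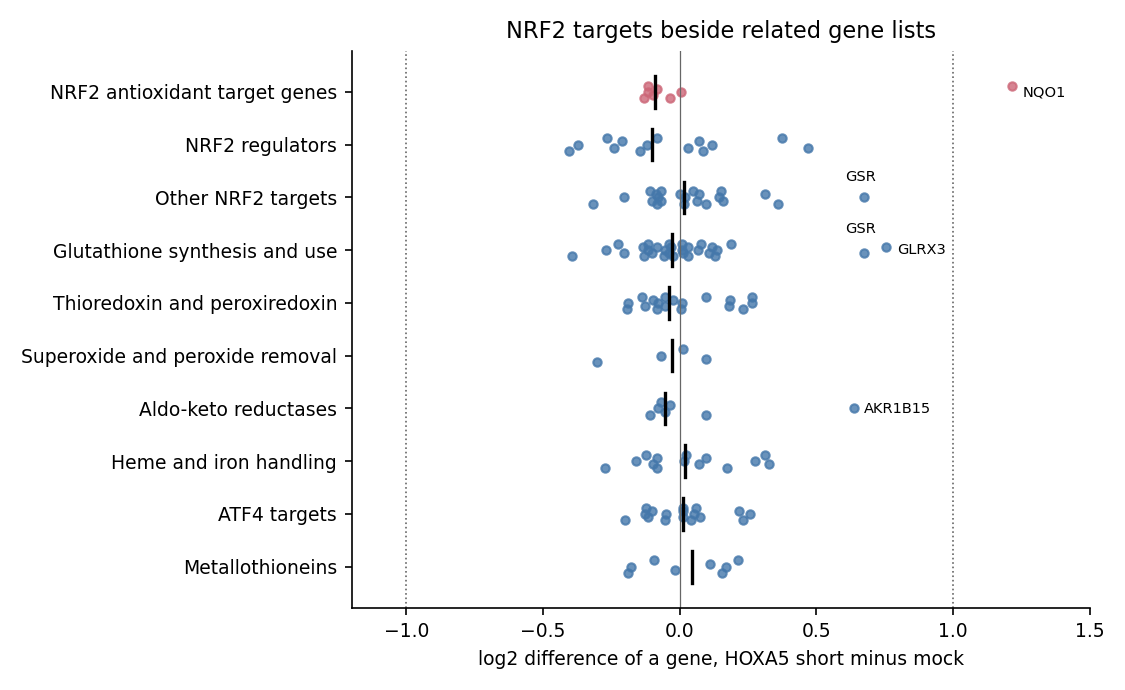
Log2 difference (HOXA5 short minus mock) of each gene compared in the NRF2 target set (red) and in related gene lists (blue), with list medians as black bars and dotted lines at 2-fold; genes past 1.5-fold are named, and a gene may stand in several lists. Medians lie between -0.10 and 0.05, and NQO1 is the only gene past 2-fold.

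NQO1 was measured on 1 spot per array, and its value depended on the processing: with normexp background correction (an offset of 50) followed by quantile normalization it was 0.53, below 2-fold, and HOXA5 was 1.86, whereas quantile normalization alone gave 1.23 for NQO1 and 2.83 for HOXA5. Scaled instead to the spike-in RNAs of the labelling kit, all values were higher by 0.47, and the 7 other targets then lay between 0.34 and 0.47.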

How the data were processed

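The authors quantified the arrays in Feature Extraction (version 11.5.1.1 per the file headers) and deposited spot intensities, linear and background-corrected. Their deposited log2 table, centred per probe, served only as an alternative. From the intensities, flagged spots were left out, log2 values averaged per probe, the 75th percentile of 50599 non-control probes subtracted, and probes well above background on both arrays compared (17938). The value of a gene is the mean of its probes. No spot was saturated. Accessions were matched without versions to RefSeq records (GRCh38.p14), naming 59.3% of probes; the array was annotated on hg19. An uneven area is one where at least 10% of 10 or more well-measured spots within 4 rows and columns reached 2-fold. Groups followed the genotype label; 2-fold is a fixed size, not a test. Members, lists and settings were chosen with earlier results of these data known. Named are all members, their main regulators and partners, each list's highest and lowest gene (1 of these is not reported here) and genes past 1.5-fold; GPX2 was added after its values were seen. Calculations used Python 3.11.15 and limma 3.58.1 in R 4.3.3 and were tested on simulated data.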

Additional observations from a re-analysis of the deposited data

How the results depend on the processing

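No paired analysis was possible because each group held 1 array, and no array could be left out. Beside the scaling given above, 12 settings were compared: scaling to the median, to detected probes or to spike-ins, quantile and cyclic loess normalization, normexp followed by quantile, the log2 table of the authors, no filter, a signal of at least 50, the brightest probe, and removal of or correction for uneven areas. NQO1 ran from 0.53 (normexp, where 0 targets were 2-fold higher) to 1.68 (spike-ins) in 11 of these; with a signal of at least 50 it was not compared, which left 0. Normexp gave 1.86 for HOXA5. Spike-in scaling, resting on 7 spike-ins that ranged from -0.66 to -0.04, gave 0.35 for GCLM, 0.34 for GCLC, 0.38 for HMOX1, 0.37 for TXNRD1, 0.47 for SRXN1, 0.35 for SLC7A11, 0.43 for AKR1B10, 3.30 for HOXA5, a target median of 0.38, and 3 genes of the other lists 2-fold higher (GSR, GLRX3 and AKR1B15). Scaling to the median gave a target median of 0.0084. AKR1B10 was -0.23 with a signal of at least 50 or the brightest probe alone, and the latter put 1 gene of the other lists (GSR) past 2-fold. SLC7A11 was -0.32 once the median of the surrounding spots was subtracted. Without a filter 1 gene of the other lists (AKR1E2, not well above background) was 2-fold lower. Among all genes, 77 were 2-fold higher and 31 lower; this became 400 and 8 with spike-ins, 108 and 20 with the median, 29 and 13 with normexp, 216 and 108 with the authors' values, 447 and 566 without a filter, 40 and 17 with a signal of at least 50, and 48 and 20 without uneven areas. Without the spike-in setting, the other 7 targets stayed between -0.32 and 0.10, though SLC7A11 was not compared once uneven areas were removed. Scaling to the median, to detected probes or to spike-ins moved every gene by the same amount, 0.10, -0.02 and 0.47. The cause of the other shifts was not tested. Signal over background left AKR1C1 and NFE2L2 without a value.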

Other observations

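Medians of 3 further stress gene lists lay near 0; the heme list holds HMOX1 and the ATF4 list SLC7A11. Heme and iron genes had a median of 0.02 over 14 of 15 compared, from -0.27 for UROD, an enzyme of heme synthesis (1949 in mock and 1989 in HOXA5 short cells), to 0.33 for HMOX2. Targets of ATF4, the factor of the amino acid response that also induces SLC7A11, had a median of 0.01 over 17 of 19, from -0.20 for CEBPG to 0.26 for PHGDH, the first enzyme of serine synthesis (540 and 798). Metallothioneins, which bind zinc and respond to metals, had a median of 0.05 over 8 of 10, from -0.19 for MT1E to 0.21 for MT3. In these lists 0 genes were past 1.5-fold, with 2.78% of all named genes that high and 1.6% that low, a share at which few or none would be found in lists of this size.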
